A study of Homo sapiens with 2 samples.

Results

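The DOCK genes encode a family of guanine nucleotide exchange factors, and 9 of them were followed here in a human breast epithelial line with and without extra ARHGAP4. The members were DOCK2, DOCK3, DOCK4, DOCK5, DOCK6, DOCK8, DOCK9, DOCK10 and DOCK11, taken as the array features that the platform annotation assigns to these symbols. They are 9 of 14812 genes that could be named, and each rested on 1 feature. The remaining DOCK genes were not analysed here. RNA came from MCF-10A, an established, non-tumorigenic mammary epithelial cell line. In 1 sample the cells stably carried an EGFP vector, and in the other they stably carried ARHGAP4 fused to EGFP (EGFP-ARHGAP4), so both express a fluorescent protein and only the second the fusion. Each sample was hybridised to 1 Affymetrix whole-transcript array. The promoter that drives the constructs, and whether a line is a single clone or a pool, are not stated in the labels. With 1 array per group no difference can be set against a spread between cultures, and neither a test nor an error is given.

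DOCK proteins switch on small GTPases such as Rac and CDC42 by exchanging bound GDP for GTP. They do so through a catalytic region called DHR-2, while a second region, DHR-1, binds membrane phosphoinositides. They are usually sorted into subfamilies A to D. Members of A and B act mainly on Rac, usually together with an ELMO adaptor, members of C act on Rac or CDC42, and members of D, also called zizimins, act on CDC42. ARHGAP4 works in the opposite sense, as a GTPase-activating protein that speeds the return of small GTPases to the GDP-bound state. Several DOCK proteins, among them DOCK2, DOCK8, DOCK10 and DOCK11, are best known from white blood cells, and others are widely expressed in epithelia.

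The values below are log2 expression values, 1 per gene and array, and a difference is the value with EGFP-ARHGAP4 minus that with the EGFP vector. Features differ in how strongly they respond to a given amount of RNA, so the differences below compare a gene with itself between the arrays. Where levels of several features enter one value, this is said. A gene passed the level filter when the higher of its 2 values reached 4.02, which is the median over genes and arrays; this left 7685 genes. Pairs of values are given with the EGFP vector first. ARHGAP4 itself stood at 4.49 and 6.68, in the direction of the labels. The labelled cell type was checked on the mammary markers with a named feature. Of 4 basal markers 2 passed the filter, KRT5 at 8.33 and 8.34 and KRT14 at 9.21 and 6.96, while MYLK and OXTR lay below it in both arrays. Of 6 luminal markers 4 passed, KRT8 at 5.06 and 5.43, KRT18 at 7.30 and 7.38, EPCAM at 6.58 and 7.79 and GATA3 at 5.37 and 4.71, while KRT19 and ESR1 lay below it in both.

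DOCK11 was lower in the EGFP-ARHGAP4 array and was the only one of the 9 members to differ by 2-fold. DOCK9, of the same subfamily, was the member with the highest difference and was 1.46-fold higher. The other 7 lay between -0.44 and 0.35. Of the 9 members, 5 passed the level filter (DOCK4, DOCK5, DOCK6, DOCK9 and DOCK11), and the last of these passed through the EGFP vector array alone. DOCK2, DOCK3, DOCK8 and DOCK10 lay below the filter in both arrays. Among members past the filter, 1 was lower by at least 1 on the log2 scale, against a background of 0.794% of the genes past the filter, and 0 were higher by that much, against 1.0% (77 of 7685 genes). At a difference of 0.5, DOCK9 was the single member counted as higher, against 5.15%, and DOCK11 the single member counted as lower, against 9.81%. The higher and lower shares at 0.5 depend on the scaling: 396 genes were higher and 754 lower as deposited, 554 and 514 after quantile normalization, and 557 and 504 after loess correction for level. The median difference of all 9 members was 0.11, against -0.03 for all named genes. The median of the 5 members past the filter had the opposite sign, at -0.22, against -0.10 for all genes past the filter. Of the 5, 4 were below 0, but so were most genes past the filter, as their median shows.

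**Figure D1:**
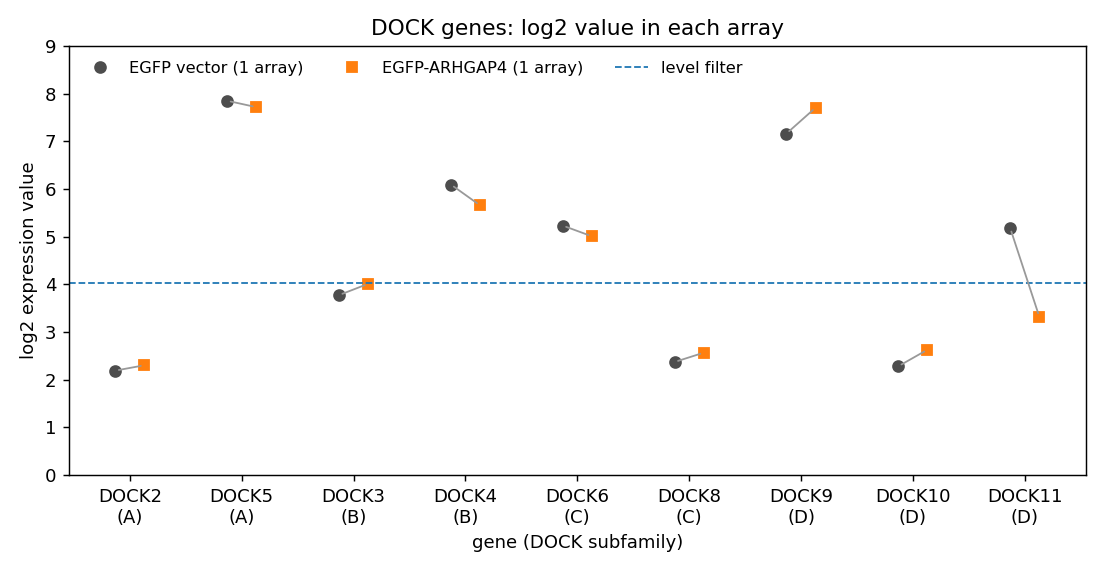
Log2 expression value (vertical axis) of each of the 9 DOCK genes in the EGFP vector array (circles) and the EGFP-ARHGAP4 array (squares), with the subfamily in parentheses and the level filter of 4.02 as a dashed line. Only the slope within a gene can be read: DOCK11 goes from 5.18 to 3.32 across the filter, DOCK9 goes from 7.16 to 7.71, and 4 genes lie below the line in both arrays.

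Subfamily D holds the widest spread. DOCK11 (zizimin2, feature 17106438, chromosome X), an exchange factor for CDC42 that is linked to filopodia and to lymphoid cells, had a value of 5.18 with the EGFP vector and 3.32 with EGFP-ARHGAP4. The second value is below the level filter, and the first is above it. The difference of -1.86 is 3.62-fold, and since log2 values narrow towards background it is approximate. Only 3 of the 7685 genes past the filter had a lower difference: KRT14, NRP1 and LINC00707. DOCK9 (zizimin1, feature 16780509, chromosome 13), the founding zizimin and likewise an exchange factor for CDC42, went from 7.16 to 7.71, a difference of 0.54. Both values are well above the filter, and 327 genes past the filter, or 4.26% of them, had a higher difference. DOCK10 (zizimin3, chromosome 2), an exchange factor known from lymphocytes and neurons, stood at 2.28 and 2.63, below the filter in both arrays. Its difference of 0.35 is between values too near background to be read as a level. The differences of DOCK9 and DOCK11 are 2.40 apart on the log2 scale, so the ratio of the 2 signals changed 5.28-fold between the arrays. Such a ratio shows unequal change and not which of the signals changed.

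The stretches upstream of the annotated starts are shown for DOCK11 and DOCK9, because they are the members with the lowest and the highest difference; they are a description, and no link between sequence and difference was tested. They are RefSeq sequence of GRCh38.p14, 250 bases before the start, 5′ to 3′ on the gene's strand, with each CG in capitals. The DOCK11 window is chrX:118495565-118495814 on the plus strand, and the DOCK9 window, the first of 2 starts listed, is chr13:99086695-99086944 on the minus strand.
DOCK11: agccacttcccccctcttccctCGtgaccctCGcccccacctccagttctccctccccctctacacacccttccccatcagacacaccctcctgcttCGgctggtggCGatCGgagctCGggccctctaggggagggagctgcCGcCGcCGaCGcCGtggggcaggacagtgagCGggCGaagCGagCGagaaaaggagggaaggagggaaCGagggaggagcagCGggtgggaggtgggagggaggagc
DOCK9: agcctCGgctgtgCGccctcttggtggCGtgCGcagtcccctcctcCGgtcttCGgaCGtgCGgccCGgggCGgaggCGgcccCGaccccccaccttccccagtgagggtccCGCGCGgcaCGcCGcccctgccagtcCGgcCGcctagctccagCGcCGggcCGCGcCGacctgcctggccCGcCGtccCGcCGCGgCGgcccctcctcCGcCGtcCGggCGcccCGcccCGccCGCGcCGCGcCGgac
The DOCK11 window holds 17 CG pairs and is 68.8% G or C, and that of DOCK9 holds 41 and is 82.8% G or C. Over 35116 windows of the same length before RefSeq starts, the median was 11 CG pairs and 58.0% G or C, and 98.3% of windows held fewer CG pairs than that of DOCK9, against 61.0% for DOCK11. The letters GGGCGG, the core of a GC box, were searched on both strands; each match holds a CG counted above. They occur 4 times before DOCK9 and 0 times before DOCK11, and 42.6% of all windows hold them. Of the other members with a listed window, DOCK4, whose difference was below 0, has 2 matches with 24 CG pairs. The rest had differences above 0 but lay below the level filter in both arrays. Of these, DOCK2 has 1 match with 12 CG pairs and DOCK3 has 0 with 35. The first windows of DOCK8 and DOCK10 hold 1 match with 36 and 2 with 27, and their later windows hold 0. CCAAT, which 32.0% of windows hold, and TATAAA, which 10.7% hold, were in neither the DOCK11 nor the DOCK9 window. The second DOCK9 start has 3 CG pairs in its window. Which start MCF-10A cells use was not measured, and a match or its absence is a description of these letters alone.

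The members of subfamily A analysed here, DOCK2 and DOCK5, had the smallest differences in size of the 9. DOCK5, a Rac exchange factor known from epithelial cell spreading and from osteoclasts, was at 7.85 with the EGFP vector and 7.72 with EGFP-ARHGAP4. Its difference of -0.13 is inside the quartiles of the genes past the filter, -0.29 and 0.12. DOCK2, the Rac exchange factor of lymphocyte migration, was at 2.19 and 2.30, below the filter in both arrays.

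In subfamily B the measured pair differed in sign. DOCK4, which acts on Rac and on the related GTPase Rap, was at 6.09 and 5.66. Its difference of -0.44, or 1.35-fold, did not reach 0.5, and 13.2% of genes past the filter had a lower one. DOCK3, a Rac exchange factor of neurons, was at 3.78 and 4.01, a difference of 0.24. Its higher value lies just under the filter of 4.02. The signal of the neuronal markers was low as well: 3 of 7 listed had a named feature, and 0 of them passed the filter.

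In subfamily C, DOCK6, which acts on Rac and CDC42, was at 5.23 and 5.01. Its difference of -0.22 lies within the quartiles of the genes past the filter. DOCK8, an exchange factor for CDC42 whose loss causes an immunodeficiency, was at 2.37 and 2.57, below the filter in both arrays.

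**Figure D2:**
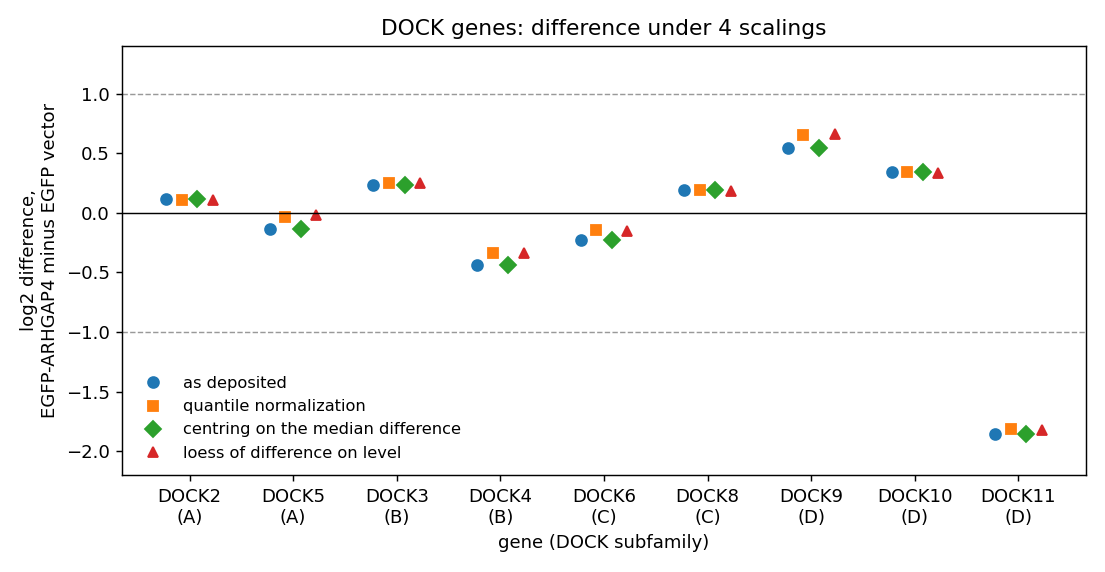
Log2 difference (EGFP-ARHGAP4 minus EGFP vector, vertical axis) of each DOCK gene as deposited and after 3 other scalings of the 2 arrays; dashed lines mark 2-fold. No gene crosses 0; DOCK11 stays between -1.86 and -1.81 and DOCK9 between 0.54 and 0.66.

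The 4 members below the filter were each above 0, and so were 47.0% of the genes below the filter. Those 4 include 3 of the 4 members best known from white blood cells. Markers of white blood cells were therefore set beside them. Of 15 listed markers 7 had a named feature, and PTPRC, the pan-leukocyte marker, and the T cell marker CD3E were not among them. The T cell marker CD2 was at 2.96 and 3.18 and the adaptor LCP2 at 2.52 in both arrays, below the filter. CSF1R, at 3.41 and 3.91, was also below it and had the largest difference of the 7, 0.50. Of the 7 markers, 4 passed the filter (CD14, SPI1, NKG7 and CD68), some of which epithelial cells also express, and the differences of all 7 ranged from -0.35 to 0.50. The median difference of the 7 was 0.03. Their summed signal on the linear scale was 276 with the EGFP vector and 333 with EGFP-ARHGAP4, and its largest term is CD68. In that sum CD68, a lysosomal protein gene, went from 7.32 to 7.80 on the log2 scale, CD14 from 5.84 to 5.48, and SPI1 held 4.24 in both arrays. SPI1 and LCP2 are among 3106 of 44629 features whose deposited value is the same in both arrays. Their ties are therefore not read as stable levels. Both samples are cultures of the same epithelial line, MCF-10A, and the markers are given as a description of signal alone. Whether any white blood cells were present was not tested. Fewer cells with a transcript and less of it per cell cannot be told apart in such samples.

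**Figure D3:**
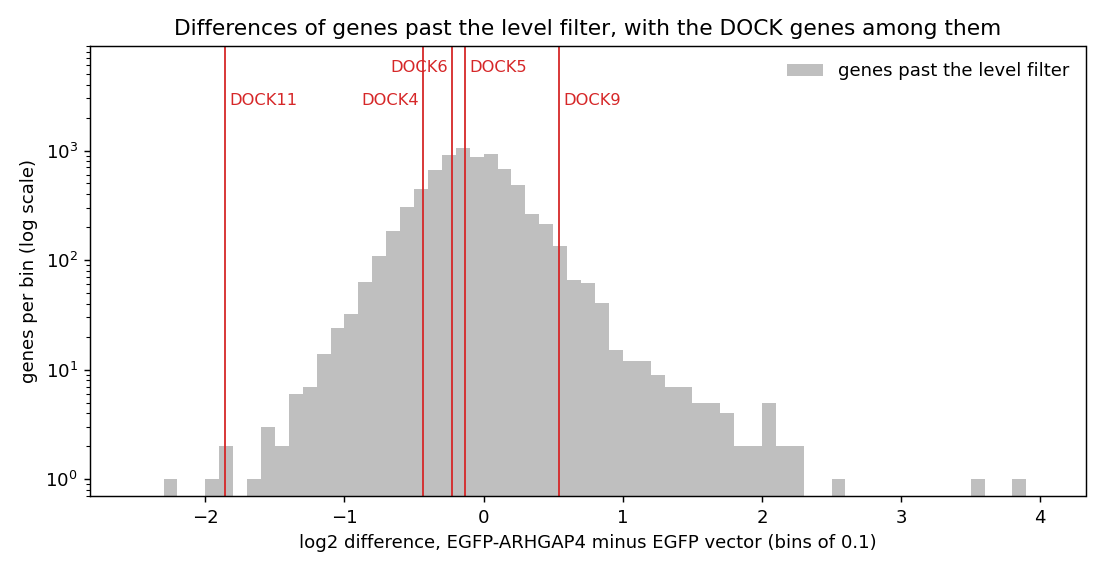
Number of genes (vertical axis, log scale) by log2 difference, EGFP-ARHGAP4 minus EGFP vector, in bins of 0.1 for the 7685 genes past the level filter; red lines mark the 5 DOCK genes among them. DOCK4, DOCK5 and DOCK6 lie within the bulk, DOCK9 at 0.54 on the right shoulder, and DOCK11 at -1.86 in the sparse left tail.

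Neighbouring genes were listed to show whether genes close to a member differed alike. Whether whole stretches of chromosomes differ between these arrays was not tested. For each member the 5 nearest named genes on either side were taken in the order of the RefSeq gene table. The 10 neighbours of DOCK11 had a median of -0.15 and ranged from -0.53 to 0.15. Of these, 5 passed the filter, with a median of -0.25, and 0 of the 5 were lower by 0.5. The nearest, WDR44 and LONRF3, were at -0.25 and -0.44. All 10 lay above the -1.86 of DOCK11, although 8 of them were below 0. The 218 genes of chromosome X past the filter had a median of -0.07. Of these, 2, DOCK11 included, were lower and 4 higher by at least 1, against 0.794% and 1.0% of all genes past the filter. The 4 higher genes include ARHGAP4, the gene that was introduced, at 2.19, and the exchange factor gene MCF2 at 2.16.

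The 10 neighbours of DOCK9 had a median of 0.11, of the same sign as DOCK9, although 4 of them were below 0. Of the 10, 7 passed the filter, with a median of 0.17 against -0.10 for all genes past the filter, and the highest of these 7 was STK24, a protein kinase gene, at 0.26. DOCK9 at 0.54 was above all 10. The 7 neighbours of DOCK4 past the filter had a median of -0.12 and ranged widely: the adhesion gene NRCAM was at 1.44, and IFRD1 was at -0.63. DOCK5 likewise lies between genes that went both ways, with CDCA2, a mitotic gene, at -0.67 and BNIP3L, a mitophagy receptor gene, at 1.03. The medians of the neighbours past the filter were -0.06 for DOCK5 and -0.19 for DOCK6. For the 4 members below the filter they were -0.68 for DOCK2 (3 genes), -0.13 for DOCK3 (7 genes), -0.10 for DOCK8 (4 genes) and -0.21 for DOCK10 (6 genes), while these members themselves were above 0.

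**Figure D4:**
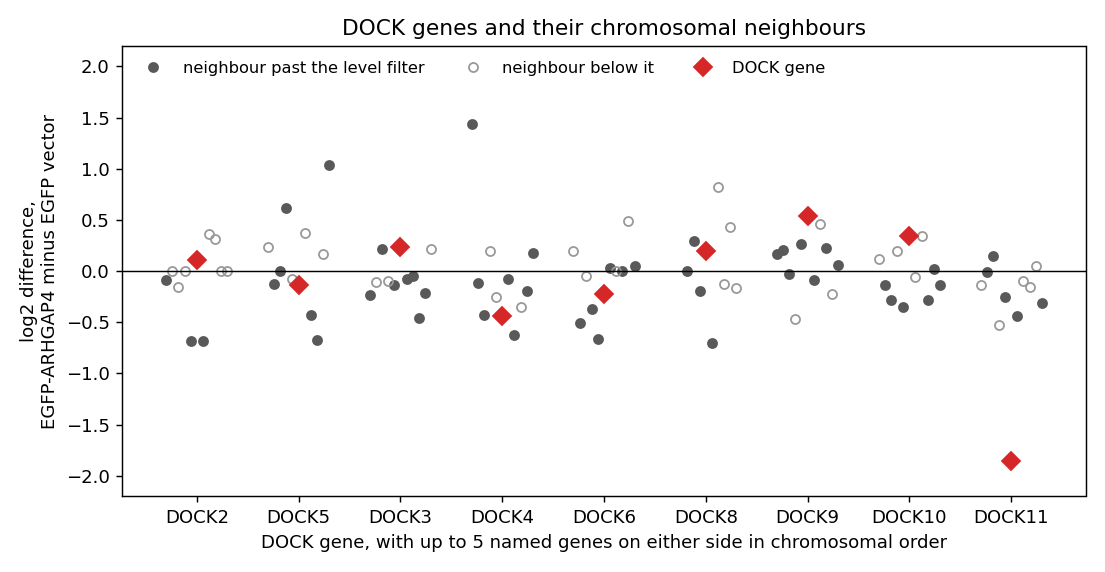
Log2 difference (vertical axis) of each DOCK gene (diamond) and of up to 5 named genes on either side in chromosomal order (filled circles past the level filter, open circles below it). DOCK11 lies far below its 10 neighbours, which range from -0.53 to 0.15, while the other 8 members lie between -0.44 and 0.54.

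Genes that act with DOCK proteins were described from lists chosen for this purpose. ELMO proteins are the adaptors through which DOCK proteins of subfamilies A and B reach Rac. ELMO3 was at 5.27 with the EGFP vector and 5.84 with EGFP-ARHGAP4, a difference of 0.57, while ELMO2 differed by -0.05, which turned to 0.05 under another scaling. ELMO1 was at 2.54 and 1.99, below the filter. NCK1, an SH2 and SH3 adaptor, was at 5.92 and 5.28, a difference of -0.64. Of the 18 partners and adaptors with a named feature, 14 passed the filter. Of these 1 was higher and 1 lower by 0.5, beside the 5.15% and 9.81% of all genes past the filter given above. The median of all 18 was -0.17, or -0.11 after quantile normalization and after loess. That of all named genes moved as well, from -0.03 to -0.003 after quantile normalization and -0.006 after loess. This background applies to the next 3 lists too. The median of the 14 past the filter was -0.09, beside -0.10 for all genes past the filter.

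Downstream of Rac and CDC42, 30 of 41 listed effector genes were measured and 25 passed the filter. Of those, 1 was higher and 3 were lower by 0.5, against 5.15% and 9.81% of all genes past the filter, so the shares are near the background. The median of the 30 was -0.09, but -0.01 after quantile normalization and -0.004 after loess. That of the 25 past the filter was -0.10, as for all genes past the filter. ABI1, a subunit of the WAVE complex that links Rac to actin branching, was at 7.91 and 6.89, a difference of -1.02. PARD3, a polarity scaffold that works with CDC42, was at 5.72 and 4.79, a difference of -0.93. Both lie on chromosome 10 among genes that were lower too: the neighbours past the filter had a median of -0.82 for ABI1 (6 genes) and -0.75 for PARD3 (8 genes). IQGAP3, a scaffold for both GTPases, differed by -0.85 beside neighbours at 0.20. BAIAP2L1, an actin regulator of the IRSp53 family, differed by 0.50.

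The Dbl family is the larger group of such exchange factors and shares no catalytic fold with DOCK proteins. Of 47 measured, 27 passed the filter, and 3 were higher and 3 lower by 0.5, beside the same background of 5.15% and 9.81%. The median of the 47 was -0.09, but -0.04 after quantile normalization and -0.02 after loess. That of the 27 past the filter was -0.10, as for all genes past the filter. MCF2 went from 2.38 to 4.54 and was the only one to differ by 2-fold; it passed the filter through the EGFP-ARHGAP4 array alone, so its fold is approximate. ECT2, the exchange factor of cytokinesis, differed by -0.81, NET1 by -0.75 and ARHGEF39 by -0.66. NET1 is on chromosome 10, and its 7 neighbours past the filter had a median of -0.67. Of the 19 measured GTPase-activating proteins known to act on Rac or CDC42, ARHGAP4 included, 13 passed the filter, 1 was higher by 0.5 (ARHGAP4 itself) and 3 were lower, again beside 5.15% and 9.81%. The median of the 19 was -0.21, but -0.12 after quantile normalization and after loess. That of the 13 past the filter was also -0.21, against -0.10 for all genes past the filter. ARHGAP21, which acts on CDC42, was at 6.07 and 4.52, a difference of -1.55. Its 4 neighbours past the filter on chromosome 10 had a median of -0.50. Not all of that chromosome was lower. DNMBP, a Dbl family gene on it, differed by 0.21, and its 5 neighbours past the filter had a median of 0.22. ARHGAP22, also on it and below the filter, differed by -0.07, and its 5 neighbours past the filter had a median of 0.59. ARHGAP31 and CHN1, which act on Rac and, for the first, also on CDC42, differed by -0.62 and -0.57 and ended below the filter.

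**Figure D5:**
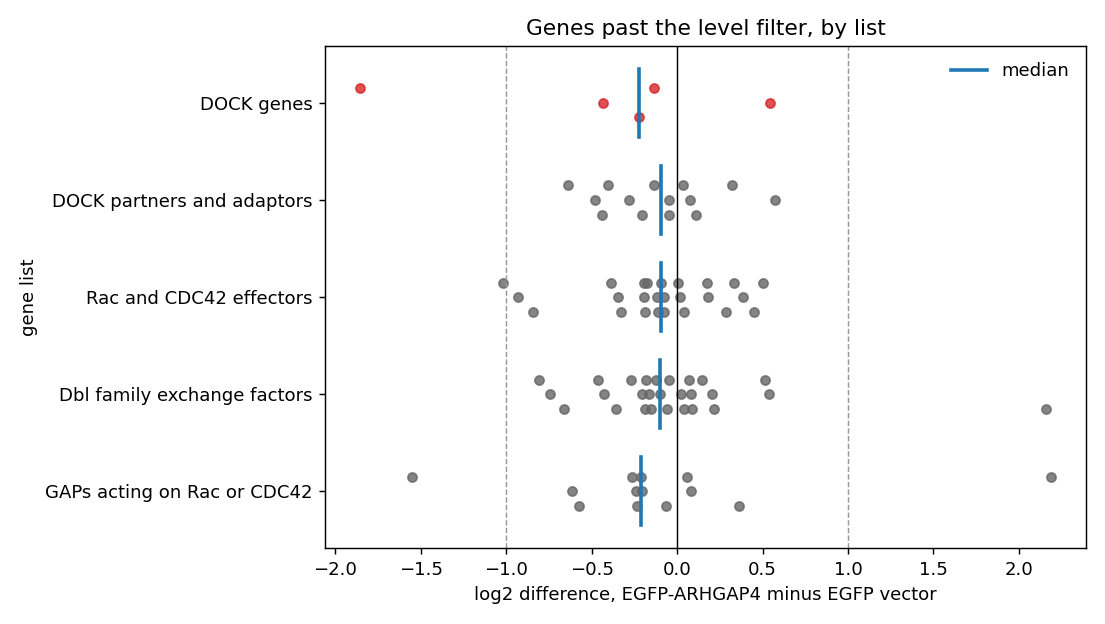
Log2 difference (EGFP-ARHGAP4 minus EGFP vector, horizontal axis) of each gene past the level filter, by list, with a bar at the median of those genes; dashed lines mark 2-fold and the vertical offset within a list only separates points. DOCK11 at -1.86 is the lowest point of the plot, ARHGAP21 at -1.55 the next, and MCF2 and ARHGAP4 are the points beyond 2 on the right.

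The genes whose pair of values lay nearest to that of DOCK11 were found by Euclidean distance over the 2 arrays. In order of distance they were MIR573 at 0.37, LOC100288637 at 0.49, SVIL-AS1 at 0.50, ZFP69 at 0.52 and HPSE at 0.53. Their differences ranged from -1.63 for LOC100288637 to -1.20 for HPSE. That all are smaller in size than that of DOCK11 is not read as a result. It follows almost wholly from the choice of DOCK11, whose difference ranked 4 from the lowest among all named genes. The 5 lie on chromosomes 4, 15, 10, 1 and 4, and none on X. This measure sets levels of different features against each other, so it also takes in how each feature responds, and with 2 arrays it is coarse.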

How the data were processed

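The authors deposited 1 log2 expression value per feature and array for 44629 features, used here as deposited. Per the labels' protocols, total RNA was amplified with the GeneChip whole-transcript kit and labelled with biotin by terminal transferase; summarisation, normalization and software cannot be named (not given in the sources used here). Base 2 follows from the range, whose maximum of 12.8 exceeds what a 16-bit scanner gives in natural log, 11.1. The number of arrays limits the precision.

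The platform annotation of 2020 named 15835 features, all matched to the RefSeq gene table (GRCh38.p14, used for names, chromosomes and gene order). The array's own build is not given. Log2 values of features of one gene were averaged. Lists and members were chosen with earlier results of these data known. Named were all members and, from each list, at most 4 genes past the filter that differed by 0.5 or more, or else the 2 largest. A few more (ELMO1, ELMO2, DNMBP, ARHGAP22, markers and chromosomal neighbours) were named after their values were seen. The values of 2 further lists are not reported here. Promoter sequence was used for 7 of 9 members, without DOCK5 and DOCK6. The spread used to judge scalings, 0.21, is the pooled SD of the difference between features of one gene (336 genes). Alternatives were other scalings, filters, thresholds and the highest feature of a gene. Calculations used Python 3.11.15, pandas 2.3.3, numpy 2.4.6 and statsmodels 0.14.6 and were tested on simulated data.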

Additional observations from a re-analysis of the deposited data

How the results depend on the processing

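Under quantile normalization, centring on the median difference, loess correction for level (span 0.3) and use of the highest feature, 0 of 36 member values changed sign and 0 moved by more than 0.21. Centring and the highest feature left each member's value as it was, since the median difference of all features was 0 and each member has 1 feature. The largest movements were those of DOCK5, from -0.13 to -0.01, and DOCK9, from 0.54 to 0.66. With the level filter at the 0.75 quantile (5.91) DOCK11 no longer entered, so the members lower by 1 and by 0.5 became 0 and 0. Over all genes that filter left 39 higher and 35 lower by 1, and 185 higher and 408 lower by 0.5. Without a filter, 629 genes were higher and 958 lower by 0.5, and at 1.5-fold 277 were higher and 495 lower. Of genes past 2-fold, 55.8% were higher as deposited, 67.2% after quantile normalization and 68.4% after loess; of those past 0.5 the shares were 34.4%, 51.9% and 52.5%. No paired analysis was possible because each group holds 1 array. Depth is not given by such arrays, and 4 of the 9 members lie below the level filter in both arrays, where differences narrow.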

Other observations

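Of the genes annotated within the span of a member, 3 had a named feature. The microRNA precursor gene MIR378E, within DOCK2, was at 4.26 with the EGFP vector and 3.57 with EGFP-ARHGAP4, a difference of -0.69, while DOCK2 itself differed by 0.11 below the level filter. ANGPTL8, a gene of lipid metabolism within the span of DOCK6, differed by 0.03, against -0.22 for DOCK6. MIR4439, within DOCK10, was at 1.49 and 1.43, below the filter.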
